A study of Mus musculus with 6 samples.

Results

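The 10 genes Sox7, Sox17, Sox18, Erg, Nr2f2, Gja4, Gja5, Bmx, Efnb2 and Ephb4, which mark or set arterial and venous identity in endothelial cells (ECs), were followed through single cell RNA sequencing of mouse proximal pulmonary arteries (PAs). They were chosen by symbol from the 53647 genes counted. The mice were wild type C57BL/6J, and no allele, transgene or drug was involved. The young group held 2 libraries, a female and a male of 3 months. The old group held 4 libraries, of 20, 24, 27 and 28 months. By the stated sex, the oldest of these came from a female and the other 3 from males. One more young library that the study describes is not analysed here. The arteries were excised with surrounding tissue, digested with collagenase and elastase, and captured in droplets. Old and young animals were the contrast of these libraries, and the study asked which cells of the arterial wall change with age.

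The SoxF factors Sox7, Sox17 and Sox18 are related transcription factors of the endothelium, and Sox17 is known for its part in arterial specification. Erg is an ETS family factor that maintains endothelial identity in all vessels. Nr2f2 is an orphan nuclear receptor that represses arterial genes in veins and is needed in lymphatic ECs. Gja4 and Gja5 encode connexins of arterial gap junctions, and Bmx encodes a Tec family tyrosine kinase of arterial endothelium and endocardium. Efnb2 encodes a membrane bound ephrin ligand of arteries, and Ephb4 encodes its receptor, which is typical of veins. Main PAs are lined by an endothelium of arterial type, while small vessels of their wall, veins and lymphatics of the surrounding tissue hold ECs of other types.

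Promoters of 7 of the 10 genes were present in the RefSeq table of build GRCm38.p6, each as 250 bases before to 50 bases after a gene's start. Those of Gja4, Gja5 and Bmx are shown because these genes differed most between arterial-like and capillary-like ECs. That of Nr2f2 is shown because it was lower in arterial-like than in capillary-like ECs, as Sox17, Sox18 and Ephb4 also were at 28 months. That of Erg is shown because it alone held the Sox letters. Capitals mark the letters AACAAT (Sox), CAGGAA (ETS) or GTGGGAA (Rbpj), searched on both strands. The last 2 share the ending GGAA.
Gja4, chr4:127313990-127314289, minus strand: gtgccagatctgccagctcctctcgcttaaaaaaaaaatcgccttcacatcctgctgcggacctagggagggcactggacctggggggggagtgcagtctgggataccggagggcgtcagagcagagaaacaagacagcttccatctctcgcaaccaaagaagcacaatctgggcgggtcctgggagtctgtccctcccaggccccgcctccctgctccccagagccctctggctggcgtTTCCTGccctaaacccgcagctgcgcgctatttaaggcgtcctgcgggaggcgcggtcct
Gja5, chr3:97032152-97032451, plus strand: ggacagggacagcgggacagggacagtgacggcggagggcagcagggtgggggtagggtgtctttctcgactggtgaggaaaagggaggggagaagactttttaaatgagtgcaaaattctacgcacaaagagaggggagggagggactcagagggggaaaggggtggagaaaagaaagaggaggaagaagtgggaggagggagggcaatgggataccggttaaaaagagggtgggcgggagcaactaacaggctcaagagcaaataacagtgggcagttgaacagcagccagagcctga
Bmx, chrX:164258144-164258443, minus strand: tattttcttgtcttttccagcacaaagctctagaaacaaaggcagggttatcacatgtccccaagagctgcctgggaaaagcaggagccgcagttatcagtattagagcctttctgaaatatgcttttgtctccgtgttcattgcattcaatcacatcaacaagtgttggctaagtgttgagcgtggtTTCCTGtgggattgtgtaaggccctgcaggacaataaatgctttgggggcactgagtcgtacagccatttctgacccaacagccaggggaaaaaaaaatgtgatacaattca
Nr2f2, chr7:70366697-70366996, minus strand: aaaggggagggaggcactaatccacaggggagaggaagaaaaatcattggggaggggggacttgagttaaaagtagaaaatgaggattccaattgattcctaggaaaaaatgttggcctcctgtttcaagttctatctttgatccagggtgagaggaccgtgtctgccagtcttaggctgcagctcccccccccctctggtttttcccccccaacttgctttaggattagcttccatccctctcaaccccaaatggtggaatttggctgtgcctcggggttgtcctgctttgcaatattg
Erg, chr16:95459299-95459598, minus strand: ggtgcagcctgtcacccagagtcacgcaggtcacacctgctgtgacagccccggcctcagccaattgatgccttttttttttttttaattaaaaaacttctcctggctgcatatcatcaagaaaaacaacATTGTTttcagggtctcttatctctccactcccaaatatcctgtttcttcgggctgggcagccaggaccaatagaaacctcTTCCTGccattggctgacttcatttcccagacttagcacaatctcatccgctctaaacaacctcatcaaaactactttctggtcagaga

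The Erg window held 1 Sox and 1 ETS match, and the Bmx and Gja4 windows held 1 ETS match each. The windows of Gja5 and Nr2f2 held none of the 3 motifs, and neither did those of Efnb2, Ephb4 and the 2 other Erg starts. Among 32851 promoters of the same length, 10.7% held the Sox letters, 30.6% the ETS letters and 6.38% the Rbpj letters. A match is a description of the letters only.

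Libraries held from 6355125 to 50436562 unique molecular identifiers (UMIs, 1 for each captured transcript) and gave 15234 cells after doublets were left out. Depth differed between groups. The median UMIs per blood EC were 618 and 650 in the young libraries and 639 at 24 months, but 1915, 2832 and 2807.5 at 20, 27 and 28 months. The 2 young libraries and that of 24 months also shared 131 to 215 cell barcodes with each other, against at most 4 for other library pairs, although only 1 of the shared barcodes was an EC in both. The sex-linked genes gave a mixed picture for the library of 20 months, which the study states to be male. Xist there reached 442 CPM over all counts, near the 435 of the female of 28 months. Eif2s3y reached 3.55 against 55.1 in the male of 27 months. Ddx3y and Uty, like Eif2s3y genes of the Y chromosome, had 8488 and 77 UMIs at 20 months. They had 6272 and 2364 UMIs in the larger library of 27 months, and 3 and 0 in the female of 28 months. The 3 barcode-sharing libraries held both Xist and Eif2s3y, with Eif2s3y at 14.004 CPM in the young female, and Xist at 46.1 CPM in the young male and 26.1 CPM at 24 months. Depth and barcode sharing move with the age groups, and their part in the differences between them was not tested beyond the values given.

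Blood ECs numbered 2109, of which 62 and 84 came from the young libraries and 671, 181, 297 and 814 from those of 20, 24, 27 and 28 months. All 12 EC markers were detected in the blood ECs of each library. A separate cluster of 101 cells carried lymphatic markers and is called lymphatic-like, and 89 of its cells came from the libraries of 27 and 28 months. Neither the 10 genes nor the lists of other arterial and venous genes were used to build the clusters. Levels are given as CPM, counts of a gene scaled to 1000000 UMIs in all, summed over the cells of a type in a library. In summed counts, fewer cells carrying a gene and less RNA per cell cannot be told apart.

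**Figure D1:**
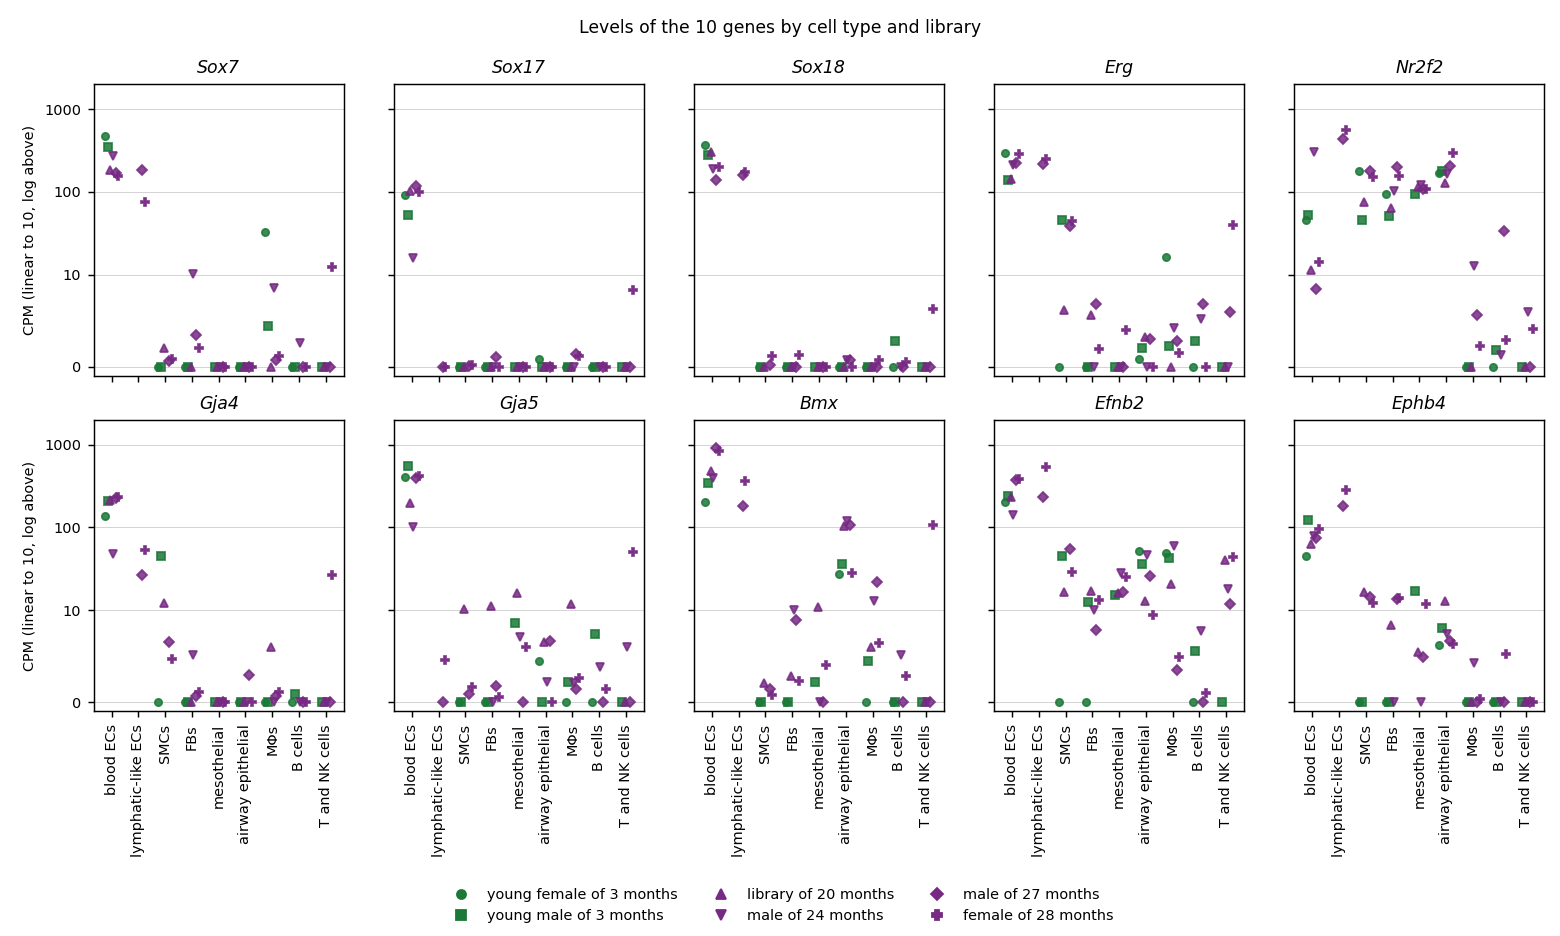
CPM of each gene (vertical axis, linear up to 10 and logarithmic above) in 9 cell types, with 1 point for each library with at least 10 cells of the type; green points are young and purple points old. Sox17 and Gja5 were higher in blood ECs than in any other type shown, Sox7, Sox18 and Gja4 overlapped with lymphatic-like ECs, and Nr2f2 was spread over SMCs, FBs, mesothelial and airway epithelial cells and was highest in lymphatic-like ECs.

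The SoxF genes and the connexins were the most restricted to ECs. Of all their UMIs in typed and untyped cells, blood ECs held 95.6% for Sox17, 91.6% for Gja5, 89.5% for Sox18, 87.6% for Sox7, 83.01% for Gja4 and 81.6% for Bmx. The share was 48.6% for Erg, 47.0% for Efnb2 and 38.4% for Ephb4, and 1.41% for Nr2f2. These shares also move with the number and depth of the cells of each type, since SMCs numbered 3471 and came mostly from the deep library of 27 months.

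Sox17 showed the sharpest border. Its level in blood ECs was 91.2 and 52.0 CPM in the young female and male and 102, 15.7, 117 and 101 CPM at 20, 24, 27 and 28 months, and it stayed at or under 8.30 CPM in every other type with at least 10 cells. In lymphatic-like ECs no Sox17 UMI was found at 27 or 28 months, where a count of 0 allows up to 19.9 and 6.91 CPM. Sox18 and Sox7 did not share this border. Sox18 reached 159 and 173 CPM in lymphatic-like ECs at 27 and 28 months, beside 140.4 and 199 CPM in blood ECs of the same libraries, and Sox7 reached 186 and 76.0 beside 169 and 156. Outside ECs the T and NK cells of 28 months carried several of the genes, Bmx at 108 CPM among them. Their summed level of 5 pan-endothelial genes (Cdh5, Pecam1, Cldn5, Egfl7 and Tie1) was 9.05% of that of the ECs of the library, and its part in these levels was not tested.

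Nr2f2 was not restricted to ECs. It was highest in lymphatic-like ECs, at 439 and 564 CPM at 27 and 28 months. Airway epithelial cells followed with 129.7 to 293 CPM, fibroblasts (FBs) had 50.6 to 199.6, smooth muscle cells (SMCs) 45.7 to 179.8 and mesothelial cells 95.01 to 120.4. The lymphatic-like levels lay above every library of these 4 types, whereas the ranges of the 4 types overlapped and give no order. MΦs (macrophages) ranged from 0 to 12.8 CPM. In blood ECs Nr2f2 was low in 5 libraries, at 45.6 and 52.0 CPM in the young female and male and 11.5, 8.42 and 14.1 CPM at 20, 27 and 28 months, and reached 307 CPM at 24 months.

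The Nr2f2 level of the ECs of 24 months came from 39 UMIs. With each cell thinned to 500 UMIs, 14.9% of its blood ECs held a Nr2f2 UMI (exact binomial 95% interval 10.1 to 20.96), against 0.246% to 3.57% in the other libraries. The B cells of the library, which should lack Nr2f2, had a Nr2f2 UMI in 0 of 976 cells after thinning, at a median of 692 UMIs per cell before it. As deposited, 32 of the 181 ECs held Nr2f2 and 149 did not. The 32 cells held 0 Gja5 and 0 Sox17 UMIs among 23989 UMIs, and the 149 held 13 and 2 among 103060. Counts of 0 among so few UMIs do not separate the 32 cells from the 149 for either gene. Cdh5, a pan-endothelial adhesion gene, was at 875 and 864 CPM, and Vwf, a clotting factor gene that is high in veins, at 2543 and 2562 CPM. Over all blood ECs, the venous markers summed to 4416 CPM at 24 months and to 2876 to 4483 CPM elsewhere. Selp, Prss23, Lrg1 and Bst1 were highest at 24 months, at 653, 165, 213 and 86.6 CPM, and the other venous markers were not. The arterial markers summed to 5030 CPM there and to 5816 to 11742 CPM elsewhere. The part of venous ECs in the Nr2f2 level was not tested. Of the 8 lymphatic markers, Mmrn1, Ccl21a, Reln and Pdpn were at 0 in the blood ECs of this library. The other 4 were present, Prox1 at 338 CPM, Nts at 268 CPM, Flt4 at 70.8 CPM and Lyve1 at 535 CPM, and the first 3 of these were higher than in any other library. The list summed to 1212 CPM at 24 months, to 1163 and 624 CPM in the young female and male, and to 335 to 534 CPM in the other old libraries. The part of lymphatic ECs in the Nr2f2 level was not tested. Erythroid markers summed to 11130 CPM in these ECs, to 8362 CPM in those of 28 months and to 19 to 296 CPM in the others, and the 39 erythroid cells of 24 months held Nr2f2 at 360.1 CPM and the pan-endothelial genes at 35.9% of the EC level. The part of erythroid RNA in the Nr2f2 level was not tested.

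Erg, Bmx, Efnb2 and Ephb4 were also found outside the endothelium. Erg in SMCs was 38.8 CPM at 27 months and 44.4 CPM at 28 months, from 831 and 274 UMIs. That was 17.2% and 15.3% of the EC level of the same library, while the 5 pan-endothelial genes in these SMCs were at 0.816% and 1.05% of theirs. At 20 months SMCs held 3 Erg UMIs, at 6.18 CPM, and the young SMCs of the female and male held 0 and 1. That 1 UMI is 45.7 CPM, and the SMCs of the young female held 22249 UMIs of all genes. No difference with age can be read from such counts. Efnb2, which pericytes and SMCs also use, was at 16.5, 55.4 and 29.2 CPM in SMCs at 20, 27 and 28 months.

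Bmx was present in airway epithelial cells at 27.4 to 121 CPM. It was concentrated in a cluster led by Aqp3, Dapl1 and Krt5, the last a keratin of basal cells, where 5 libraries with at least 10 such cells held 65.3 to 345 CPM of Bmx and 221 to 453 CPM of Nr2f2. The pan-endothelial genes in airway epithelial cells were at most 0.801% of the EC level. Efnb2 in MΦs was highest in a cluster led by Prg4, Saa3 and Alox15, at 50.4 to 202 CPM in the 3 libraries that held it. These were the shallow libraries of the young female, the young male and 24 months, with 36, 41 and 92 such cells. All MΦs of the young female held 3 Efnb2 UMIs. Whether reads of overlapping genes entered these counts was not tested.

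Within the endothelium, ECs were clustered again without the 10 genes. The libraries of 27 and 28 months held 4 named subclusters, arterial-like (171 and 396 cells), endocardial-like (49 and 140), capillary-like (25 and 174) and lymphatic-like (25 and 66), each named from its own markers. The endocardial-like subcluster raised a share of 0.6 of the endocardial markers but also 0.5 of the FB markers, so that its name is uncertain. No subcluster passed the naming rule for venous markers, although 8 to 10 of the 10 venous markers were detected in the blood ECs of each library. A subcluster of 114 cells, 101 of them from 20 months and 13 from 24 months, also passed the naming rule as endocardial. It raised a share of 0.8 of the endocardial and 0.3 of the FB markers, and had Postn, Pdgfra and H19 among its leading genes. It held 0 cells of 27 and 28 months and was not among the 4 subclusters compared. The ECs of the young libraries and of 24 months fell mostly into a shallow, unnamed subcluster of 325 cells, and 527 of the 528 cells of another unnamed subcluster came from the library of 20 months. The comparison of subclusters therefore rests on 2 old libraries, and it is a description without a test. With the resolution doubled, the arterial-like subcluster held 67 and 361 cells of 27 and 28 months. Another subcluster of 160 cells then passed the naming rule for SMCs, with Tagln, Acta2 and Myh11 among its leading genes. It held 113 cells of 27 months and 27 of 28 months. The part of SMC RNA in the arterial-like levels of 27 months was not tested.

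**Figure D2:**
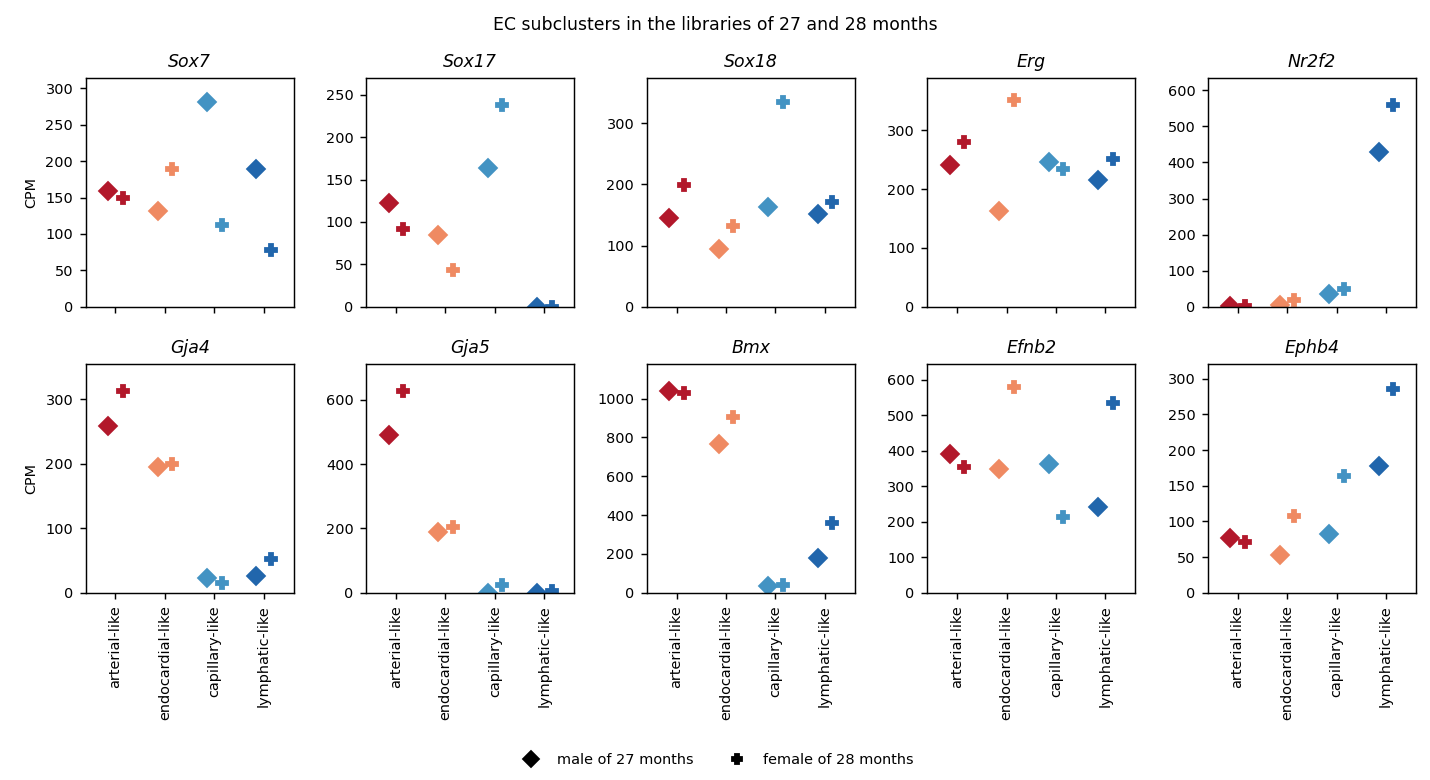
CPM of each gene (vertical axis, linear, from 0) in 4 EC subclusters (horizontal axis, one colour each) of the male of 27 months (diamonds) and the female of 28 months (plus signs). Gja4, Gja5 and Bmx were high in arterial-like and endocardial-like cells, Nr2f2 and Ephb4 were highest in lymphatic-like cells, and Erg and Sox18 were present in all 4.

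The connexins and Bmx separated arterial-like from capillary-like ECs in both libraries. Gja5 was at 491 and 627 CPM in arterial-like cells at 27 and 28 months, 189.8 and 203 in endocardial-like cells, 0 and 24.7 in capillary-like cells and 0 and 4.57 in lymphatic-like cells. Gja4 was at 259 and 314, 195 and 199, 23.4 and 15.7 and 25.3 and 52.5 CPM in the same order. Both connexins were thus highest in arterial-like cells, lower in endocardial-like cells and lowest in the other 2 subclusters. Bmx was at 1040.3 and 1031 CPM in arterial-like and 765 and 907 CPM in endocardial-like cells, at 35.1 and 40.4 CPM in capillary-like cells, and was at 177 and 358 CPM in lymphatic-like cells.

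Sox17 did not follow the connexins. It was higher in capillary-like cells, at 164 and 238 CPM, than in arterial-like cells, at 123 and 92.0 CPM, in each of the 2 libraries, although the capillary-like value of 27 months rests on 14 UMIs. Endocardial-like cells had 84.4 and 44.0 CPM. Sox18 was likewise higher in capillary-like cells, at 164 and 334 against 145 and 199 CPM, where the value of 27 months again rests on 14 UMIs. Unlike Sox17, it was kept in lymphatic-like cells at 152 and 171 CPM. Sox7 gave no order that both libraries shared between these subclusters, with 281 and 112 CPM in capillary-like and 158 and 149.6 CPM in arterial-like cells. Erg varied least, from 163 to 350.5 CPM over all 4 subclusters and both libraries. The capillary-like values of Gja4, Bmx, Ephb4 and Nr2f2 at 27 months lie below those of Sox17 and Sox18. They therefore rest on fewer than 14 UMIs.

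The ephrin ligand and its receptor were both found in arterial-like, capillary-like and lymphatic-like cells. Levels summed over a subcluster do not show whether single cells held both. Efnb2 was at 390.4 and 355 CPM in arterial-like cells and at 241 and 534 CPM in lymphatic-like cells. It ranged from 348 to 579 CPM in endocardial-like and from 213 to 363 CPM in capillary-like cells. Ephb4 was at 76.4 and 70.8 CPM in arterial-like, 81.9 and 164 CPM in capillary-like and 177 and 285 CPM in lymphatic-like cells, and lymphatic-like cells were the highest of the 4 in both libraries. Nr2f2 was at 2.73 and 2.65 CPM in arterial-like, 35.1 and 49.4 CPM in capillary-like and 430.4 and 559 CPM in lymphatic-like cells. The capillary-like values of Ephb4 and Nr2f2 at 27 months rest on few UMIs, from 25 cells.

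Co-detection asked whether cells with a UMI of gene A held gene B more often than cells without it, in blood ECs and for libraries with at least 10 cells holding gene A. As deposited, 19 of 90 ordered gene pairs with 3 or more such libraries were higher in every library and 2 were lower. Gja5 was found in 68.3% (exact binomial 95% interval 64.1 to 72.4) against 18.8% (14.6 to 23.6) of cells with and without Bmx at 28 months. For Gja4 and Gja5 at 27 and 28 months, 69.9% and 69.4% of cells with Gja4 held Gja5, against 42.1% and 37.3% of cells without it. In B cells, which should lack Gja5, 1.15% held a Gja5 UMI at 28 months, at a median of 7301 UMIs per cell.

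The counts of pairs differed between settings, which also changed the libraries and pairs that could be compared. The part of depth alone was not tested. With every cell thinned to 500 UMIs, 72 ordered pairs could be compared in 3 or more libraries, and 2 were higher in all of them and 4 lower. With only cells of at least 1000 UMIs and no thinning, 81 ordered pairs could be compared, in the libraries of 20, 27 and 28 months alone, and 63 were higher in all 3 and 2 lower. In the thinned cells of 28 months, Gja5 was found in 22.9% of those with Bmx (exact binomial 95% interval 17.7 to 28.9). The thinned share without Bmx was 16.6% (13.7 to 19.9). For Gja5 by Gja4 the thinned shares at 28 months were 17.1% with and 18.6% without Gja4. Sox17 and Gja5 likewise changed from 69.4% against 48.6% at 27 months to 0% against 18.7%, with the thinned share with Sox17 from 13 cells. Thinning also leaves few cells with any given gene, so that a smaller difference than the intervals span was not detectable at this depth. Intervals and limits at 0 cover counting error only.

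Nr2f2 and Gja5 were the pair with opposite detection. As deposited, Nr2f2 was less frequent in cells with Gja5 in all 6 libraries, with differences from -18.9 to -1.11 percentage points, and it was found in 17 of 832 cells with Gja5 and 77 of 1277 without. At 24 months it was found in 0 of 12 cells with Gja5 and in 18.9% of those without. So 12 cells are too few to tell 0 from that share, and the pooled 77 include all Nr2f2 cells of 24 months. Blood ECs held only 2, 3 and 9 Nr2f2 UMIs in the young female, the young male and at 27 months. The sign of the difference in these libraries therefore rests on a few cells. After thinning the difference was negative in 5 of 6 libraries and was 1.44 percentage points at 20 months. The SoxF genes did overlap in single cells. As deposited, 4.0% of blood ECs at 20 months, 7.7% at 27 months and 5.7% at 28 months held all 3 SoxF genes, and no EC of the young libraries or of 24 months did. After thinning no EC of any library held all 3, and 1.0% to 4.8% held 2 of them.

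The age contrast compared summed counts of old and young blood ECs with edgeR's quasi-likelihood test over 5861 genes. No gene passed an adjusted p under 0.05, so the share called was 0%, and 337 genes had an unadjusted p under 0.05, which is 5.75% of those tested. DESeq2 also called 0. Of the 10 genes, 9 could be tested and Nr2f2 was left out by the gene filter. Of these, 4 were higher and 5 lower in old ECs, and Bmx and Sox7 had an unadjusted p under 0.05. All old libraries lay above both young ones for Bmx alone and below both for Sox7 alone, beside 12.3% and 7.66% of all genes tested. The young ECs held few UMIs of each gene, 2 to 32 in a library. By the study's account the libraries came from separate mice.

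Bmx in ECs was 205 and 346 CPM in the young female and male, from 9 and 20 UMIs, and 477, 394, 898 and 832 CPM at 20, 24, 27 and 28 months. The groups did not overlap, and the young mean was 276 ± 99.9 (SD, n = 2) against an old mean of 650.3 ± 252 (SD, n = 4). The log2 fold change was 1.19 ± 0.54 (SE), with an adjusted p of 0.859 by edgeR. Sox7 was 479 and 346 CPM in the young libraries and 186, 275, 169 and 156 CPM in the old ones in the same order. Every old value was again outside the young range, this time below it. Its log2 fold change was -1.08 ± 0.46, with an adjusted p of 0.859 by edgeR.

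**Figure D3:**
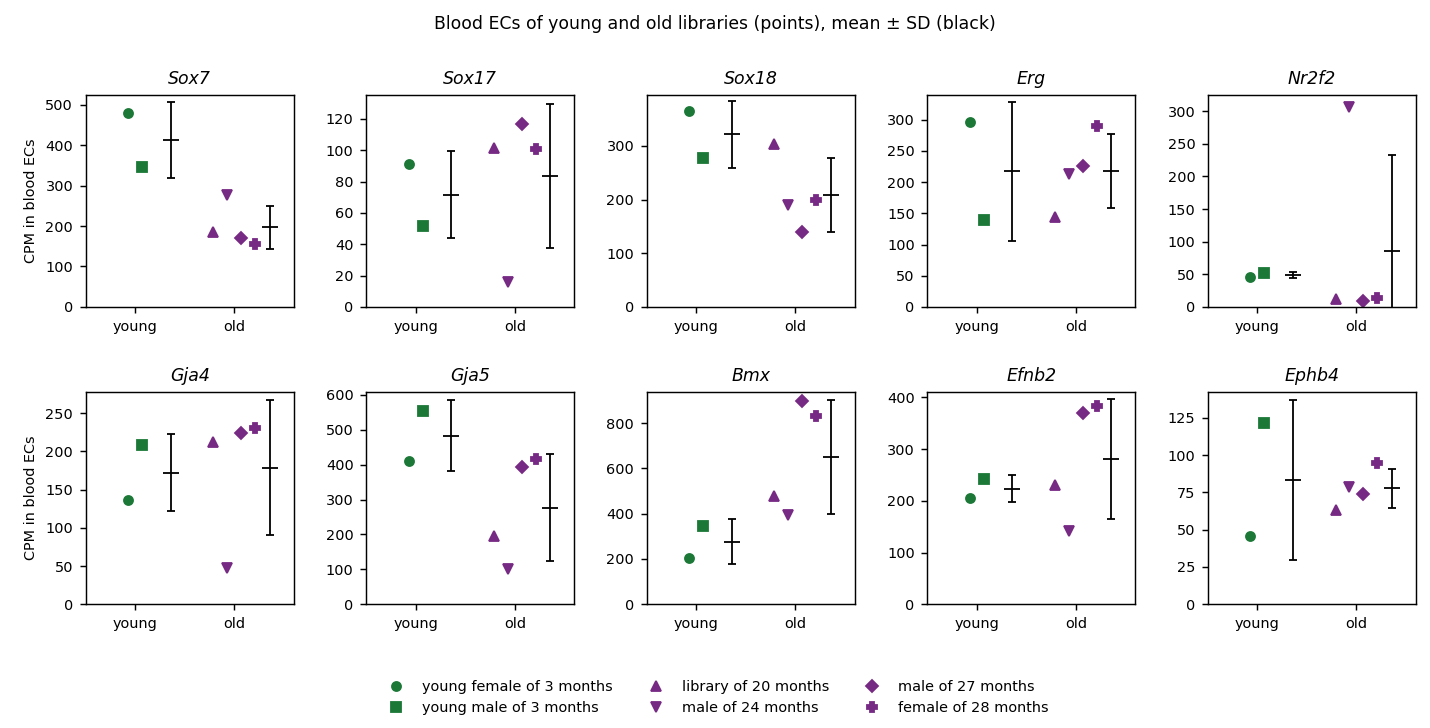
CPM of each gene in blood ECs (vertical axis, linear, from 0) of the 2 young and 4 old libraries (points, by library), with the mean ± SD of each group in black, where bars end at 0. Young and old points are apart for Bmx and Sox7 and overlap for the other 8 genes.

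Neither difference passed the threshold, and different clusters held the ECs of the libraries. A cluster led by Edn1 and Vcam1 held 57 of 62 and 82 of 84 young ECs, 667 of 671 at 20 months and 176 of 181 at 24 months, but 39 of 297 and 84 of 814 at 27 and 28 months. Within it Bmx was 224 and 354 CPM in young and 478, 392, 680.4 and 604 CPM in old libraries, and Sox7 was 474 and 354 CPM and 186, 277, 162 and 161 CPM. The fold changes there were 1.02 ± 0.55 for Bmx and -0.86 ± 0.51 for Sox7 on the log2 scale. With a term for the barcode-sharing libraries, the young pair and 24 months, they were 0.57 ± 0.64 and -0.50 ± 0.57. With this term the fold change compares 24 months alone with the young pair, and the other old libraries inform only the spread.

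Gja5 in ECs was 410.5 and 554 CPM in the young and 195, 102, 393 and 416 CPM in the old libraries, and the value of 28 months just exceeded that of the young female. Its log2 fold change was -0.84 ± 0.53, with an adjusted p of 0.895 by edgeR. With the barcode-sharing term it was -2.17 ± 0.70, with an adjusted p of 0.990 by edgeR. That term leaves 24 months as the only old library set against the young pair. Gja4, the other connexin, was 137 and 208 CPM in young libraries and 213, 47.2, 225 and 231 CPM in old ones. It was near the young values in 3 old libraries and low at 24 months, with a log2 fold change of 0.05 ± 0.60 and an adjusted p of 1.00 by edgeR, which became -1.81 ± 0.66 with the barcode-sharing term. The library of 24 months was also the lowest old one for Gja5, Sox17, Bmx and Efnb2, and its ECs were as shallow as those of the young libraries.

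The other members showed no separation of the groups. Sox17 was 91.2 and 52.0 CPM in young ECs from 4 and 3 UMIs, and its log2 fold change was 0.34 ± 0.73. With the barcode-sharing term it became -2.07 ± 0.89, which rests on 2 UMIs at 24 months beside those of the young pair. Sox18 was 365 and 277 CPM in young and 303, 189, 140.4 and 199 CPM in old ECs, a log2 fold change of -0.59 ± 0.50. Erg was 296 and 139 CPM in the young libraries, and the old ones lay between these, at 144, 213, 225 and 289 CPM. Efnb2 had a log2 fold change of 0.30 ± 0.51 and Ephb4 of -0.19 ± 0.55. The mean of Nr2f2 was 48.8 ± 4.50 (SD, n = 2) CPM for young ECs and 85.3 ± 148 (SD, n = 4) CPM for old ECs, where the spread came from the library of 24 months.

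**Figure D4:**
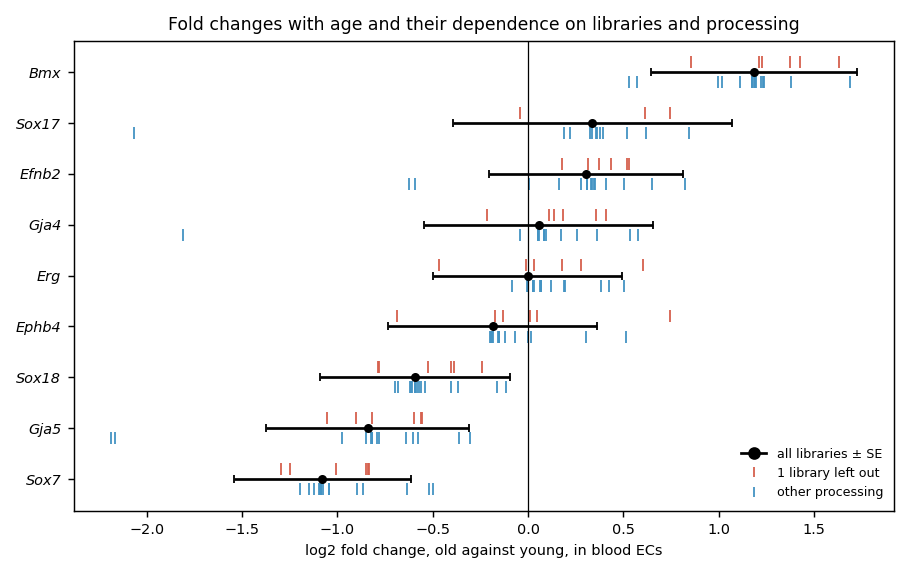
Log2 fold change of the 9 tested genes in blood ECs, old against young (horizontal axis), with all libraries (black points, bars ± SE), with 1 library left out (red ticks) and under other processing (blue ticks). Bmx stays above 0 and Sox7, Gja5 and Sox18 below 0 under each alternative, and the other 5 genes lie on both sides of 0.

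Related genes were counted from fixed lists. Of 15 other arterial genes 13 were tested in ECs, 6 higher and 7 lower, and none passed the adjusted threshold. Cxcl12, a chemokine, and Nrp1, a coreceptor of vascular growth factors, had an unadjusted p under 0.05, with log2 fold changes of 3.36 ± 1.14 and 1.61 ± 0.69. The 9 tested venous genes were 6 higher and 3 lower, and the median of the list was 0.36 beside 0.13 over all genes tested. Of the other endothelial transcription factors 11 of 13 were higher, among them Hhex, a homeobox gene, at 2.61 ± 1.09, while 57.3% of all genes tested were higher. Endothelial genes known as Erg or SoxF targets were 6 higher and 7 lower. Of the ephrins and Eph receptors 5 were tested, 3 higher and 2 lower. Epha7, an ephrin receptor, was found in old ECs at a mean of 111 CPM and had 0 UMIs in both young libraries. The young ECs held only 43854 and 57724 UMIs of all genes, so that 0 there does not show absence. Epha7 was also a leading gene of the endocardial-like subcluster, where 49 and 140 of 194 cells came from 27 and 28 months. The connexin Gjc1 was the only other connexin tested, with an unadjusted p under 0.05 and a log2 fold change of -1.66 ± 0.65.

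In FBs and SMCs few of the 10 genes could be tested. In FBs 3 of 6962 genes, 0.0431%, passed the adjusted threshold, and none of them was a member. They were Mmp3, a matrix protease gene, which rose, and Itm2a and Ttll12, which fell, and they are named after their values were seen. With any 1 library left out, 0 to 2 genes passed. Nr2f2, which FBs of many organs express, was 95.6 and 50.6 CPM in young FBs, from 2 and 4 UMIs, and 64.5, 102, 199.6 and 157 CPM in old ones. The ranges overlapped, and the log2 fold change was 1.07 ± 0.66 with an adjusted p of 0.7999 by edgeR. Among the arterial genes Jag1, a Notch ligand, was at -1.65 ± 0.55 and Cxcl12 at 1.35 ± 0.58 on the log2 scale, both with an unadjusted p under 0.05, as had 6.52% of the genes tested in FBs. All old libraries lay above both young ones for 17.8% of these genes and below both for 7.35%, and Nr2f2 was not among them.

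SMCs of 24 months numbered 3 and were left out. No gene passed the adjusted threshold in SMCs (0% of 6844), and 537 genes, 7.85%, had an unadjusted p under 0.05. DESeq2 called 1. Nr2f2 was 179.8 and 45.7 CPM in young SMCs, from 4 and 1 UMIs, and 76.2, 178 and 151 CPM at 20, 27 and 28 months. The groups overlapped, with a log2 fold change of 0.62 ± 0.77 and an adjusted p of 0.839 by edgeR. Efnb2 had 0 and 1 UMI in the young SMCs, too few to give a fold change. Ephb4 had 0 UMIs in the young SMCs, where 0 allows up to 135 and 137 CPM, above the 16.5, 14.4 and 12.3 CPM of the old libraries, so that no difference was detectable at this depth. All old libraries lay above both young ones for 23.4% of the genes tested in SMCs and below both for 11.9%. Klf2, a flow responsive factor, had an unadjusted p under 0.05 in SMCs at 2.60 ± 1.16, as did Ets2, with 0 UMIs in young SMCs.

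The genes whose levels were most like those of the members were found over 49 profiles, each the sum of at least 20 cells of 1 of 11 types in 1 library. Profiles of a library share its depth, and the correlations are a description. Sox18 was most like Myct1 (r = 0.965), Cldn5 (0.951) and Robo4 (0.948), all endothelial genes, and Sox7 was most like Adcy4 (0.938), Gpr182 and Myct1. Sox17 was most like Gkn3 (0.911), Sall1 and Klk10. Gja4 was most like Cldn5 (0.876) and Gja5 most like Clec14a (0.843) and Vwf (0.838). Bmx was closest to Pkn3 (0.831), Efnb2 to Apbb2 (0.819), Ephb4 to Hyal2 (0.808) and Erg to Plvap (0.862). Nr2f2 stood apart from these endothelial profiles and was most like Parva (0.871), Nfib (0.850) and Fmo2 (0.828).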

How the data were processed

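Single cell RNA sequencing of 6 mouse PA libraries was analysed, and 1 further young library was not analysed here. The authors trimmed reads with cutadapt, aligned them to GRCm38.p6 with STAR and deposited raw UMI counts per gene and barcode from STARsolo; tool versions are not given in the sources used here. Groups were taken from the age in the labels. A barcode was kept from 500 UMIs and 300 genes upward if no more than 20% of its UMIs were mitochondrial, and Scrublet doublets were left out, with the top 0.8% per 1000 barcodes where its own threshold marked under 0.5%. Cells were clustered in scanpy 1.11.5 (2000 variable genes, 40 components, 15 neighbours, leidenalg 0.10.2 at resolution 1, and 0.5 for ECs). The variable genes left out the 10 genes and the lists of other arterial and venous genes, but not the other lists. A cluster was named where over 40% of a type's markers, and at least 3, were raised over 2-fold and found in over 10% of its cells. The EC subclusters were named by the same rule at a lower fold.

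UMIs of each cell type were added up within a library, given 10 cells or more, and tested with edgeR 4.0.16 (TMM, quasi-likelihood, Benjamini-Hochberg over all genes tested, R 4.3.3), for genes detected in more than 5% of the cells of 3 or more libraries. DESeq2 1.42.0 was an alternative. The edgeR step was tested on simulated data. Co-detection was repeated with cells thinned to 500 UMIs, and other filters, resolutions, covariates and left-out libraries were tried. Named genes were the 10 members, up to 4 genes per list with an unadjusted p under 0.05, and the 3 genes most correlated with each member. The members and lists were chosen with earlier results of these data known. Genes were matched by symbol, and promoters were taken from RefSeq.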

Additional observations from a re-analysis of the deposited data

Results flagged for a closer look

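In blood ECs the library of 24 months stood apart from the other 3 old libraries for 3 genes by Dixon's test, which marks about 1 in 20 groups by chance. Nr2f2 was high there, at 307 CPM, while Sox17 was low at 15.7 CPM and Gja4 at 47.2 CPM. The Sox17 and Gja4 values rest on 2 and 6 UMIs.

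Barcodes below the cell filter, which entered no comparison, also held UMIs of all 10 genes. They held 576 UMIs of Sox7, 230 of Sox17, 588 of Sox18 and 1519 of Erg. They held 566 UMIs of Gja4, 1865 of Gja5, 2130 of Bmx, 1037 of Efnb2, 610 of Ephb4 and 1556 of Nr2f2. Sox17 in these barcodes was at 3.5% to 19.3% of its EC level over the libraries, and Cdh5, a pan-endothelial gene, at 2.8% to 21.9%. Nr2f2 reached 10.3% to 647% of its EC level there.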

How the results depend on the processing

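No member passed an adjusted p under 0.05 under any alternative that was fitted, and Bmx, Sox7, Gja5 and Sox18 kept their direction in ECs. The lowest adjusted p was 0.0788, for Gja5 with only the barcode-sharing libraries, of which 1 is old. That alternative and the Edn1 Vcam1 cluster alone were chosen after seeing the data. Where values changed, the cause was not tested.

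Genes called in ECs (0) became 9 with no gene filter and 10 with only the barcode-sharing libraries. Those in FBs (3) became 0 at 1000 UMIs and 500 genes, 0 after thinning, 0 with the barcode-sharing covariate, 10 with no gene filter and 17 with sex as covariate, and 0 to 2 when 1 library was left out. Those in SMCs (0) became 2 with filterByExpr, 38 with no gene filter, 1 without TMM, 1 with DESeq2, 8 with sex as covariate, and 0 to 169 when 1 library was left out. The 169 came without the library of 20 months, 4 without that of 27 months and 3 without that of 28 months. The sex covariate rests on the stated sex of the library of 20 months.

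On the log2 scale in ECs, the barcode-sharing covariate gave -2.07 for Sox17, -1.81 for Gja4, -0.59 for Efnb2 and 0.067 for Erg, and only the barcode-sharing libraries gave -0.62 for Efnb2 and 0.068 for Erg. Erg was further 0.033 with doublets kept, 0.43 after thinning, 0.065 at resolution 2, 0.19 with filterByExpr, 0.50 with no gene filter, 0.028 without TMM, 0.024 with DESeq2, 0.19 with sex as covariate, 0.38 in cells gated on Pecam1 and Cdh5 and 0.12 in the Edn1 Vcam1 cluster. Ephb4 was 0.014 with filterByExpr, 0.31 with no gene filter and 0.51 in the gated cells, and Gja4 was -0.041 with lymphatic-like ECs included. With 1 library left out, Sox17 ranged from -0.045 to 0.75, Erg from -0.47 to 0.61, Gja4 from -0.22 to 0.41, Ephb4 from -0.68 to 0.75, and Nr2f2 in SMCs from -0.060 to 2.003. Sox17 had no value without the library of 20, 27 or 28 months, so its range covers the other left-out libraries only.

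After thinning, mean co-detection differences became -4.68 percentage points for Gja5 by Sox17, -1.91 for Gja4 by Sox17, -0.51 for Sox18 by Sox17, -2.58 for Sox7 by Erg and 0.80 for Sox18 by Erg. Nr2f2 by Sox17 became -2.44 with lymphatic-like ECs included. ECs and SMCs at 1000 UMIs, and SMCs with the barcode-sharing covariate or libraries, could not be fitted. No paired analysis applied, because by the study's account the young and old libraries came from separate mice.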
